A study of Drosophila melanogaster with 78 samples.

Results

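Drosophila embryos that carry 1 dose of a robo mutation, by the group name robo/WT, were compared with WT embryos at stage 15, the late embryonic stage at which the axon tracts of the ventral nerve cord are already laid out. The robo/WT group held 4 arrays and the WT group 5, so 9 of the 78 arrays of the study entered this comparison, and both groups were chosen by the array titles alone. The other 16 groups were mutants and transgenics of axon guidance genes, all at stage 15, and 3 of them served for reference, each with 4 arrays: robo, slit/WT and comm/WT. The labels used here do not name the robo allele, the genetic background or the parents of either group, and the reading of robo/WT as a heterozygote rests on its name. They also disagree on replication, since the titles call the arrays biological replicates, the descriptions call them technical replicates and the design text counts 3 or 4 per condition. The p-values therefore measure only the spread between arrays, which may be technical. In the linear model used below, that spread was estimated over all 18 groups and not from the 9 compared arrays alone. Each array was hybridised with biotin-labelled RNA prepared from 6 ug of whole-embryo RNA. In such bulk RNA, fewer cells of a type and less RNA per cell cannot be told apart.

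Slit is a protein secreted by the midline cells of the nerve cord, and growth cones that carry Robo receptors are repelled by it. Commissureless holds Robo back from the surface of axons that cross the midline, while Netrins attract axons through Frazzled and repel them through Unc-5. Embryos without robo are known for axons that cross and recross the midline, and embryos with a single working copy are widely used as a sensitised background in which weak effects of other guidance genes are looked for.

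All levels are log2 of the deposited linear intensities, and differences are log2 differences from 1 linear model (limma) over all 78 arrays, given with their standard error and with p-values adjusted by the Benjamini-Hochberg method over 13966 probe sets. A probe set is a group of short oligonucleotides read as one signal for a transcript, and each gene is represented by its brightest one. The median intensity of the 78 arrays lay between 811 and 858. The robo/WT arrays had a wider spread of log2 values than the WT arrays, with an SD of 1.76 ± 0.02 (SD, n = 4) against 1.71 ± 0.03 (SD, n = 5; exact permutation test, two-sided, p = 0.0397). The 3′ probe set of GAPDH exceeded its 5′ probe set by 2.19 ± 0.16 (SD, n = 4) on the robo/WT arrays and by 1.71 ± 0.13 (SD, n = 5) on the WT arrays (exact permutation test, two-sided, p = 0.00794). For actin this gap was 1.35 ± 0.19 (SD, n = 4) and 0.79 ± 0.27 (SD, n = 5; exact permutation test, p = 0.0159), and for eIF-4a it was 1.14 and 1.12 (exact permutation test, p = 0.849). A larger gap is a usual sign of shorter labelled RNA, and the part of RNA quality in the differences below was not tested. WT replicate 1 stood apart from the other WT arrays, with an SD of 1.66, and robo/WT replicate 4 had the widest spread of its group, with an SD of 1.79.

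Differences between robo/WT and WT embryos were many and mostly small. Of the 13966 probe sets, 2875 were higher in robo/WT (20.6%) and 3637 were lower (26%), so that 46.6% passed an adjusted p of 0.05. The median size of a called difference was 0.27, and the median over all probe sets was -0.05. Only 54 called probe sets were higher by 2-fold or more and 3 were lower by that much, while 430 and 45 passed 1.5-fold. Counted by gene, 2236 of 10844 were higher (20.6%) and 2879 lower (26.5%), or 47.2% together, and the robo/WT and WT arrays did not overlap in 28.2% of all genes. With the SD of each array as a covariate, 15% of genes were higher and 17.5% lower, without WT replicate 1 the shares were 17% and 19.3%, and without robo/WT replicate 4 19.1% were lower. Requiring arrays that did not overlap, and a call that was kept both with the array SD as a covariate and without the 6 arrays that stood apart in their groups, left 1122 genes higher (10.3%) and 1038 lower (9.57%). The place of both groups among the 18 group means was read for the called genes. Among the 2236 genes higher in robo/WT, WT had the lowest mean in 407 (18.2%) and robo/WT the highest in 447 (20%). Among the 2879 lower genes, WT was the highest group in 466 (16.2%) and robo/WT the lowest in 338 (11.7%). These genes were chosen by the same difference, which favours such places, and the shares over all genes were not computed.

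The robo1 transcript itself was slightly lower in robo/WT. Its log2 intensities were 11.12, 11.07, 11.12 and 11.05 on the robo/WT arrays and 11.58, 11.35, 11.34, 11.10 and 11.35 on the WT arrays. WT replicate 4 fell among the robo/WT arrays, so the groups overlapped, while the other 4 WT arrays were higher than every robo/WT array. The difference of -0.25 ± 0.07 was 1.19-fold (adjusted p = 0.0021). Among all 18 groups robo/WT had the lowest mean, 11.09 ± 0.03 (SD, n = 4). The nearest groups were robo12, at 11.14, and robo, at 11.16 ± 0.22 (SD, n = 4), and robo against robo/WT gave a difference of 0.07 ± 0.07 that did not pass the test (adjusted p = 0.52). Against the mean of slit/WT and comm/WT, robo1 was lower by a difference of -0.37 ± 0.06 (adjusted p = 2.3e-05). Only 1 probe set reports robo1, and a mutation need not change the amount of transcript that it detects. The 20 measured genes on each side of robo1 on its chromosome moved like genes in general: 7 of the 40 were higher, 10 were lower, and their median difference was -0.05.

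Slit and the Commissureless family did not pass the test. The sli transcript was at 9.81 ± 0.08 (SD, n = 4) in robo/WT and 9.68 ± 0.33 (SD, n = 5) in WT, a difference of 0.13 ± 0.10 (adjusted p = 0.3), and it passed in 1 alternative, without the arrays that stood apart (0.22, adjusted p = 0.048). Without WT replicate 4, the WT array with the lowest sli level, the difference was -0.00 (adjusted p = 0.98). For comm the means were 11.86 ± 0.04 and 11.84 ± 0.08 (adjusted p = 0.85). Its relative comm2 differed by -0.10 ± 0.06 (adjusted p = 0.14), and that difference passed after quantile normalization (-0.14, adjusted p = 0.035) and with the array SD as a covariate (-0.16, adjusted p = 0.034).

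On the Netrin side, NetB, which encodes a secreted attractant of the midline, was the guidance gene with the largest difference. Its log2 intensities were 11.08, 11.08, 10.95 and 10.99 in robo/WT and 10.31, 9.96, 9.98, 10.06 and 9.76 in WT. Every robo/WT array was higher than every WT array, and the difference was 1.01 ± 0.10, or 2.01-fold (adjusted p = 2.7e-12). WT had the lowest mean of all groups for this gene: the other 16 groups lay between 10.57 and 11.45, and robo/WT did not pass the test against their mean (-0.08 ± 0.08, adjusted p = 0.47). The Netrin receptor gene fra read 11.47, 11.39, 11.56 and 11.38 in robo/WT against 10.09, 11.23, 11.02, 11.37 and 11.11 in WT. All robo/WT arrays were higher than all WT arrays, but by little at WT replicate 4 and by much at WT replicate 1. The difference of 0.48 ± 0.13 passed the test (adjusted p = 0.0026), whereas without WT replicate 1 it was 0.27 (adjusted p = 0.063) and with the array SD as a covariate 0.24 (adjusted p = 0.11). The brightest of 3 probe sets of unc-5 differed by 0.06 ± 0.06 (adjusted p = 0.39), and the other two disagreed with each other, at -0.05 (adjusted p = 0.63) and 0.60 (adjusted p = 0.00035). Syndecan, encoded by Sdc, is a heparan sulphate proteoglycan that binds Slit and assists its signalling. Its levels were 12.01, 11.86, 11.88 and 12.06 in robo/WT and 11.62, 11.48, 11.47, 11.42 and 11.44 in WT, without overlap (0.47 ± 0.06, adjusted p = 2.6e-08). As with NetB, WT was below every other group for Sdc, since the other 16 group means ran from 11.73 to 12.40.

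**Figure D1:**
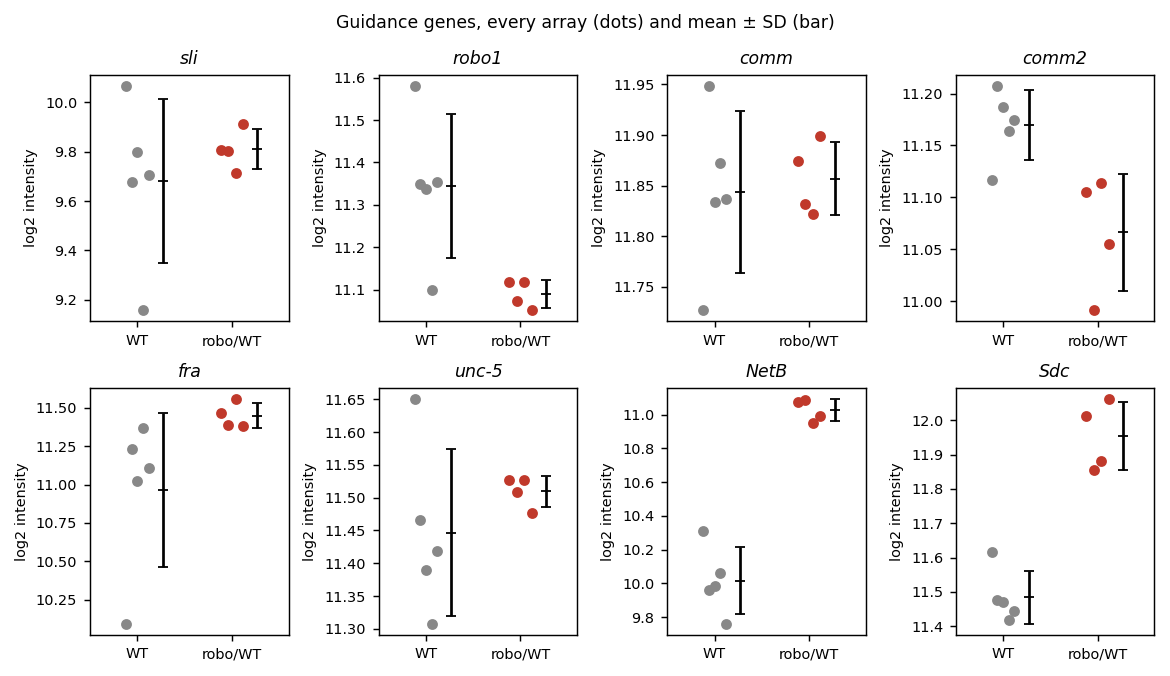
Log2 intensity of 8 guidance genes on each of the 5 WT and 4 robo/WT arrays (dots), with the group mean and its SD (bar); the vertical axes differ between panels. NetB, Sdc and fra were higher on every robo/WT array than on every WT array, and robo1 was lower on every robo/WT array than on all but 1 WT array.

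Among the wider list of 30 measured guidance ligands and receptors, 10 were higher, 2 were lower and 18 did not pass, with a median difference of 0.14. The counts of this and the following lists stand beside 20.6% higher and 26.5% lower over all genes, and several lie near those shares. With the array SD as a covariate these shares were 15% and 17.5%, and without WT replicate 1 they were 17% and 19.3%. Besides NetB, fra and Sdc, the higher members included Sema1a, a transmembrane semaphorin, at 0.54 ± 0.11 (adjusted p = 4.4e-05), and otk, a receptor-like protein of the Plexin pathway, at 0.49 ± 0.12 (adjusted p = 0.0009), whose call was lost with the array SD as a covariate (adjusted p = 0.051). The receptor tyrosine phosphatase gene Ptp10D was the other lower member beside robo1, at -0.35 ± 0.07 (adjusted p = 2.1e-05). With the array SD as a covariate, 6 members were higher and 3 lower. Of 12 genes for signalling proteins that act inside the growth cone, 6 were higher and none was lower (median 0.22). They included the kinase gene Pak (0.55 ± 0.12, adjusted p = 0.00014), the cytoskeletal linker shot (0.53 ± 0.08, adjusted p = 2.7e-07) and the adaptor Crk (0.49 ± 0.12, adjusted p = 0.00081). For Crk, WT replicate 1 was far below the other WT arrays and the difference was 0.29 without it (adjusted p = 0.023), while the call was lost with the array SD as a covariate (0.21, adjusted p = 0.059) and with only the compared groups fitted (adjusted p = 0.068). The kinase gene Abl, which acts with Robo, differed by -0.02 and did not pass the test.

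The axonal and neural adhesion genes moved in both directions. Of 17 measured, 7 were higher, 4 were lower and 6 did not pass. Nrx-1, which encodes the synaptic organiser neurexin, read 10.81, 10.84, 10.81 and 11.08 in robo/WT and 9.94, 9.61, 9.50, 9.58 and 9.90 in WT. The groups did not overlap, and the difference was 1.18 ± 0.11 (adjusted p = 1e-13). CadN, the neuronal cadherin, was higher by 0.79 ± 0.09 (adjusted p = 2.2e-10), and Con, which encodes connectin, a homophilic adhesion protein found on some motor axons and muscles, was higher by 0.78 ± 0.10 (adjusted p = 7.5e-09). In contrast, neuroglian (Nrg), the fly L1-type adhesion protein, was lower by a difference of -0.45 ± 0.12 (adjusted p = 0.0013). Nrx-1 in robo/WT lay at the mean of the other 16 groups (difference 0.02 ± 0.08, adjusted p = 0.86), whereas Nrg was lower than that mean as well (-0.80 ± 0.09, adjusted p = 4.8e-11).

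Genes of differentiated neurons were split, with 7 of 18 higher, 4 lower and 7 not passing (median 0.10). The higher ones included the synaptic vesicle release gene unc-13 (0.58 ± 0.12, adjusted p = 4.6e-05) and its partner Rop (0.42 ± 0.06, adjusted p = 1.8e-07). The vesicular transporter gene Vmat was higher at its brightest probe set (0.59 ± 0.09, adjusted p = 3.3e-07) and lower at another (-0.15, adjusted p = 0.039). Tyrosine hydroxylase, encoded by ple and needed for dopamine and for cuticle tanning, was lower (-0.36 ± 0.06, adjusted p = 5.2e-06). The pan-neuronal gene elav differed by 0.38 and did not pass the test. Of 15 neural precursor genes, 5 were higher and none lower, among them insc (0.77 ± 0.09, adjusted p = 7.8e-11), grh (0.74 ± 0.09, adjusted p = 2e-09) and brat (0.73 ± 0.10, adjusted p = 1.1e-08), which act in the asymmetric division or the timing of neuroblasts. The proneural genes ac, sc and l(1)sc did not pass. Of 8 midline genes 4 were higher and 2 lower, beside 20.6% and 26.5% of all genes. The receptor gene Egfr was higher at its brightest probe set (0.63 ± 0.10, adjusted p = 3e-07), while its other probe set gave -0.05 (adjusted p = 0.52). Of 11 glial genes 4 were higher and 1 lower. The higher glial genes were nrv2, a sodium pump subunit (0.79 ± 0.16, adjusted p = 7.2e-05), Gli, the junction protein gliotactin (0.78 ± 0.10, adjusted p = 8.6e-10), htl, a fibroblast growth factor receptor also used by mesoderm (0.73 ± 0.10, adjusted p = 4e-08), and wrapper, an adhesion protein of midline glia (0.29 ± 0.06, adjusted p = 0.00015). The glial fate regulator repo differed by 0.16 and did not pass.

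Markers of whole tissues were read beside these lists, as the mean log2 level of the markers on each array. The 5 glial markers had 2 higher, 1 lower and 2 not passing, and their mean level ran from 10.53 to 10.66 in robo/WT and from 9.98 to 10.42 in WT. The 4 neuronal markers had 1 higher and 1 lower, with ranges that overlapped (9.59 to 9.67 and 9.38 to 9.98). Both measured muscle markers were higher, at 13.74 to 13.85 against 13.18 to 13.55, and both fat body markers were lower, at 10.58 to 10.78 against 10.92 to 11.10. For hemocytes the ranges were 8.65 to 8.83 and 8.31 to 8.69. For epidermis and cuticle they were 12.003 to 12.040 and 11.971 to 12.079. Midline markers were at 9.77 to 9.90 and 9.63 to 9.83, and midgut markers at 10.38 to 10.49 and 10.18 to 11.43. The part of tissue proportions in the differences was not tested.

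**Figure D2:**
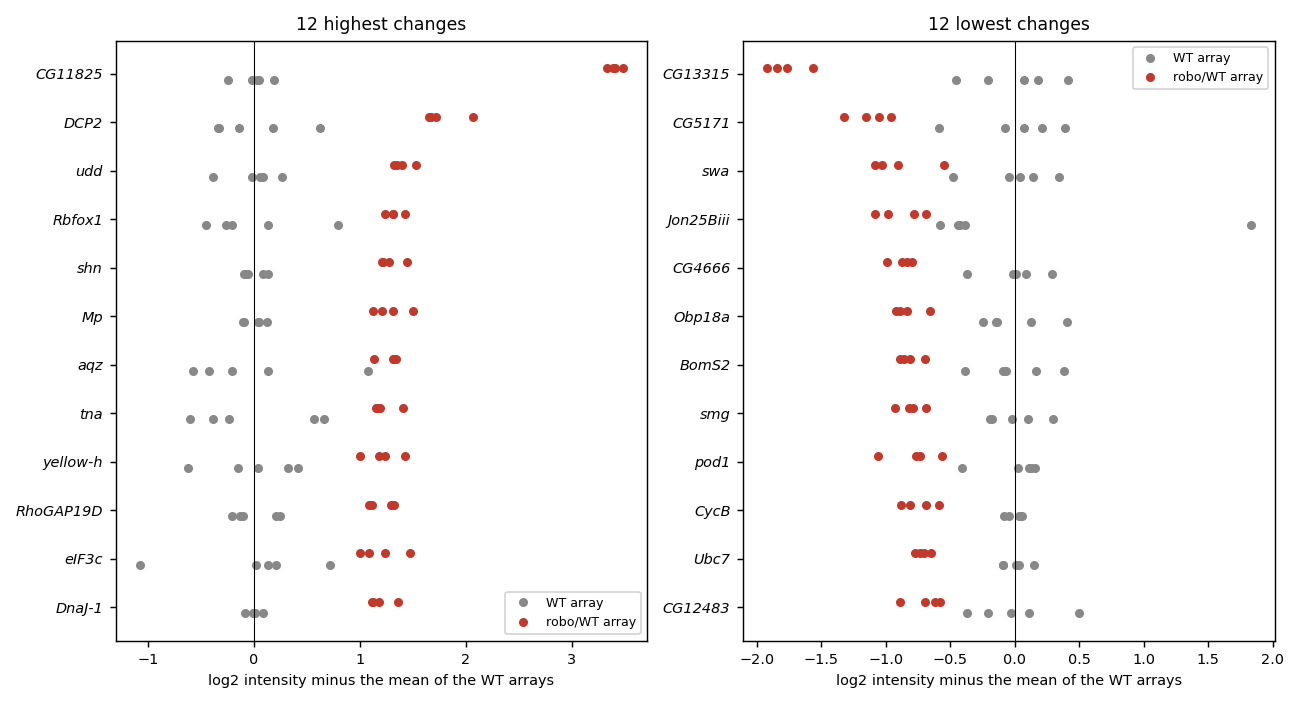
The 12 highest and 12 lowest differences of single genes in robo/WT against WT, as the log2 intensity of each array minus the mean of the 5 WT arrays; red dots are the 4 robo/WT arrays and grey dots the 5 WT arrays. CG11825 stood more than 3 log2 units above WT on all 4 robo/WT arrays, and Jon25Biii had 1 WT array far above the rest.

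The genes with the largest differences were ranked among those whose arrays did not overlap and whose call was kept in the stricter count above, and CG11825 came first. Its levels were 11.49, 11.34, 11.39 and 11.41 in robo/WT and 7.76, 7.99, 8.03, 8.05 and 8.19 in WT. The groups lay far apart, and the difference of 3.40 ± 0.12 was 10.6-fold (adjusted p = 4e-36). It was not a property of robo/WT alone: the other 16 groups ranged from 8.02 to 12.73, robo was at 11.49 ± 0.27 (SD, n = 4) and comm/WT at 11.32 ± 0.12 (SD, n = 4). The decapping enzyme gene DCP2, whose product removes the 5′ cap of mRNAs, was higher by 1.77 ± 0.16 (adjusted p = 8.2e-15), from 9.07 ± 0.41 (SD, n = 5) in WT to 10.84 ± 0.20 (SD, n = 4). Next came udd, a factor for ribosomal RNA transcription (1.40 ± 0.09, adjusted p = 1.7e-20), and the splicing regulator gene Rbfox1 (1.32 ± 0.11, adjusted p = 1.7e-15), which was also higher at its other probe set (0.91). The zinc finger gene shn of the Dpp pathway was higher by 1.29 ± 0.11 (adjusted p = 5.4e-15). The collagen gene Mp was higher at its brightest probe set by 1.28 ± 0.10 (adjusted p = 3.7e-16), but its other two probe sets gave -0.16 (adjusted p = 0.078) and 0.03 (adjusted p = 0.81). The remaining 6 of the 12 were aqz, tna, yellow-h, RhoGAP19D, eIF3c and DnaJ-1, at 1.19 to 1.27. For CG11825, DCP2, Rbfox1, shn, Mp, tna, yellow-h, RhoGAP19D and eIF3c, WT had the lowest mean of the 18 groups. For these genes robo/WT lay within the range of the other 16. WT was also the lowest group for aqz, where robo/WT, at 11.83, lay just below the other 16 groups (11.84 to 12.92). Against their mean, aqz in robo/WT gave -0.39 ± 0.11 (adjusted p = 0.0026). For udd and DnaJ-1, robo/WT lay within the range of the other 16 groups (9.83 to 12.72 and 11.80 to 13.21). The udd level was higher in robo than in robo/WT by 0.88 ± 0.10 (adjusted p = 6.3e-11). With only the compared groups fitted, the adjusted p was 1.8e-09 for CG11825, 0.0022 for Rbfox1, 0.0087 for aqz and 0.013 for eIF3c.

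At the other end, CG13315 had the lowest value. It read 10.86, 10.58, 10.65 and 10.50 in robo/WT and 11.97, 12.84, 12.61, 12.49 and 12.22 in WT. Each robo/WT array was lower than each WT array by more than 1 log2 unit, and the difference was -1.78 ± 0.11, or 3.42-fold lower (adjusted p = 3.6e-22). CG5171 was at 12.09, 11.98, 11.81 and 12.18 in robo/WT and at 12.55, 13.53, 13.21, 13.35 and 13.07 in WT, again without overlap (-1.12 ± 0.12, adjusted p = 8.3e-12). Those lower by smaller amounts included the odorant-binding protein gene Obp18a (-0.83 ± 0.08, adjusted p = 1e-13), the immune peptide gene BomS2 (-0.82 ± 0.09, adjusted p = 1.2e-10), CG4666 (-0.88 ± 0.08, adjusted p = 2.1e-13) and Ubc7, a ubiquitin-conjugating enzyme gene (-0.72 ± 0.08, adjusted p = 7.1e-12). CG12483 completed the 12, at -0.70 ± 0.12 (adjusted p = 1.6e-06). For BomS2, WT had the highest mean of the 18 groups, at 8.70. There robo/WT did not pass the test against the mean of the other 16 (-0.14 ± 0.07, adjusted p = 0.12). The coronin gene pod1, whose product links actin and microtubules in growth cones, was at 10.68, 10.65, 10.85 and 10.35 in robo/WT and at 11.54, 11.43, 11.57, 11.001 and 11.52 in WT. All 4 robo/WT arrays were below all WT arrays (-0.78 ± 0.08, adjusted p = 4.9e-12), and its second probe set was lower too (-0.50, adjusted p = 6.2e-06).

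Heat shock genes were mostly higher in robo/WT. Of 10 measured, 6 were higher, 1 was lower and 3 did not pass, with a median of 0.48. The Hsp40 co-chaperone gene DnaJ-1 read 13.25, 13.002, 13.01 and 13.07 in robo/WT and 11.81, 11.97, 11.90, 11.88 and 11.89 in WT. The WT arrays lay close together and the robo/WT arrays were all more than 1 log2 unit higher (1.19 ± 0.07, adjusted p = 4.3e-23). Hsp68 was higher by 0.93 ± 0.18 (adjusted p = 1.9e-05), Hsf, the heat shock transcription factor gene, by 0.82 ± 0.11 (adjusted p = 7.1e-09), and the small heat shock gene Hsp26 by 0.66 ± 0.15 (adjusted p = 0.00027). Hsc70-3, the chaperone of the endoplasmic reticulum, was the lower one (-0.24 ± 0.06, adjusted p = 0.0018). The 2 other groups with a /WT name were higher still for 2 of these genes: against the mean of slit/WT and comm/WT, Hsp26 in robo/WT was lower by a difference of -0.91 ± 0.14 (adjusted p = 9.4e-07) and Hsp68 by -0.67 ± 0.16 (adjusted p = 0.0031).

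Of 16 genes of sugar and lipid metabolism, 13 were higher, 1 was lower and 2 did not pass (median 0.33). Pepck1, the entry enzyme of glucose synthesis, read 12.83, 12.78, 12.93 and 13.06 in robo/WT and 11.89, 12.30, 12.02, 12.10 and 12.09 in WT. No array of the groups overlapped (0.82 ± 0.08, adjusted p = 1.1e-13). The glycolytic gene Pfk was higher by 0.52 ± 0.07 (adjusted p = 2.1e-09) and the fat lipase gene bmm by 0.51 ± 0.06 (adjusted p = 1e-09), whereas Lsd-2, a perilipin that protects stored fat, was lower (-0.55 ± 0.08, adjusted p = 1.9e-07). With the array SD as a covariate, 8 were higher. In the secretory pathway 7 of 12 genes were higher and none lower (median 0.18), among them the coatomer subunits gammaCOP (0.60 ± 0.09, adjusted p = 7e-08) and alphaCOP (0.44 ± 0.07, adjusted p = 8.5e-07). With the array SD as a covariate this list had 4 higher and 2 lower. Of 15 genes for RNA decay and RNA-binding proteins, 6 were higher and 2 lower (median 0.22). With the array SD as a covariate 6 were higher and none lower, with a median of 0.003, and after quantile normalization the median was 0.092. After DCP2 the higher genes were led by the hnRNP genes Hrb27C (1.03 ± 0.11, adjusted p = 1.2e-11) and Hrb87F (0.72 ± 0.11, adjusted p = 2.6e-07).

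Muscle genes were higher in 8 of 20 cases and lower in 2 (median 0.10), and Actn, the crosslinker of the Z disc, led the list (0.69 ± 0.09, adjusted p = 8.4e-09). Of 21 hemocyte and basement membrane genes, 10 were higher and 1 lower (median 0.21), but 4 higher and 2 lower with the array SD as a covariate, and 6 and 2 without WT replicate 1. The hemocyte GATA factor gene srp was at 0.51 ± 0.13 (adjusted p = 0.0016) and lost its call with that covariate (0.25, adjusted p = 0.083). Patterning genes of the early embryo were mixed, with 6 of 17 higher and 4 lower. Antp was higher at its brightest probe set (0.91 ± 0.14, adjusted p = 2.6e-07) and lower at the other (-0.22, adjusted p = 0.0069), opa was higher by 0.76 ± 0.09 (adjusted p = 2.1e-10) and Dfd by 0.53 ± 0.09 (adjusted p = 3.8e-06).

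**Figure D3:**
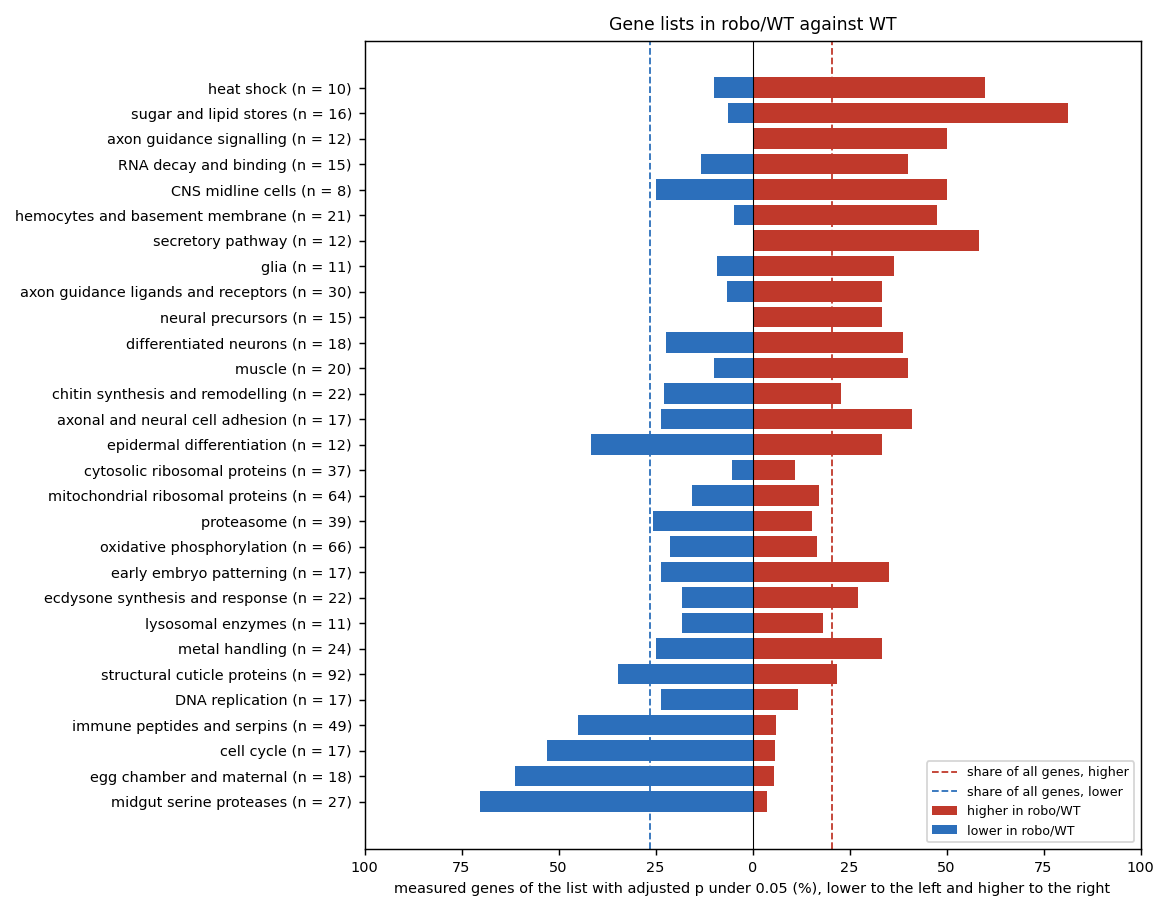
Share of the measured genes of each of 29 lists that were higher (red, to the right) or lower (blue, to the left) in robo/WT against WT at an adjusted p under 0.05, ordered by the median difference of the list. Dashed lines give the shares over all 10844 genes, 20.6% higher and 26.5% lower.

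Lists with more lower than higher genes included those of the cell cycle, the egg, midgut proteases and immunity. Of 17 cell cycle genes 9 were lower and 1 higher (median -0.18). The mitotic cyclin gene CycB read 11.10, 10.91, 10.98 and 11.21 in robo/WT and 11.85, 11.83, 11.71, 11.82 and 11.74 in WT. The groups were separate and tight (-0.74 ± 0.06, adjusted p = 4.2e-15), and CycB3 was lower by a similar amount (-0.69 ± 0.10, adjusted p = 2.3e-08). CycE, the cyclin of DNA replication entry, was the higher one (0.47 ± 0.11, adjusted p = 0.00053). Without WT replicate 1, 6 of the list were lower. Of 17 DNA replication genes, 4 were lower, 2 were higher and 11 did not pass. Against the other 16 groups 4 of them were higher and 1 was lower, beside 18.6% and 14.8% of all genes. Against slit/WT and comm/WT, CycB gave a difference of -0.00 ± 0.06 (adjusted p = 0.99). Of 18 egg chamber and maternal genes 11 were lower and 1 higher (median -0.21), and 5 were lower with the array SD as a covariate. The lowest were swa, which localises bicoid mRNA in the egg (-0.89 ± 0.13, adjusted p = 7.2e-08, with -0.15 at its other probe set), and smg, which clears maternal mRNAs (-0.81 ± 0.11, adjusted p = 9.5e-09). The germ cell gene gcl was higher (0.58 ± 0.10, adjusted p = 2.3e-06). Against the mean of slit/WT and comm/WT, none of the 18 genes was higher or lower, beside 5.66% and 5.25% of all genes. There swa gave -0.15 ± 0.12 (adjusted p = 0.44) and smg -0.12 ± 0.10 (adjusted p = 0.45). The mean level of 3 germline and maternal markers ran from 7.45 to 7.56 in robo/WT and from 7.57 to 7.94 in WT.

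Of 27 midgut serine proteases measured, 19 were lower and 1 was higher (median -0.26), but without WT replicate 1 the lower ones numbered 10, beside 19.3% of all genes, and with the array SD as a covariate 7. Jon99Fii read 10.85, 10.86, 10.93 and 10.86 in robo/WT and 13.79, 10.84, 10.92, 10.83 and 10.92 in WT. WT replicate 1 was high and the other 4 WT arrays were level with robo/WT, so the difference of -0.58 ± 0.23 (adjusted p = 0.03) became -0.00 without that array (adjusted p = 1). Jon99Fi behaved alike, from -0.74 ± 0.30 (adjusted p = 0.037) to -0.01 (adjusted p = 0.98). Jon25Biii was still lower without WT replicate 1 (-0.43, adjusted p = 0.0006), after -0.88 ± 0.19 (adjusted p = 0.00014) with it. Of 49 immune peptides and serpins 22 were lower and 3 higher (median -0.15), with 9 lower under the array SD covariate and 14 without robo/WT replicate 4. BomBc2 was lower by a difference of -0.62 ± 0.07 (adjusted p = 2e-11), while the Drosomycin-like gene Drsl5 was higher (0.76 ± 0.11, adjusted p = 2.3e-08).

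Cuticle proteins, which build the larval exoskeleton late in embryogenesis, went both ways: of 92 measured, 20 were higher, 32 were lower and 40 did not pass (median -0.07). The higher ones included Cpr67Fa2 (0.81 ± 0.18, adjusted p = 0.00015) and Cpr66Cb (0.61 ± 0.09, adjusted p = 3.4e-07), and for Cpr67Fa2 the value was 0.53 without WT replicate 1 (adjusted p = 0.0044). For housekeeping machinery the main fit gave shares near or under the background, with 4 of 37 cytosolic ribosomal protein genes higher and 2 lower, 11 and 10 of 64 mitochondrial ribosomal protein genes, and 11 and 14 of 66 genes of oxidative phosphorylation. With the array SD as a covariate the mitochondrial ribosomal list had 2 higher and 35 lower, beside 17.5% of all genes lower, and the oxidative phosphorylation list 6 and 28. Under the same covariate, the counts of higher and lower genes were 4 and 3 for adhesion, 7 and 1 for neurons, 8 and 0 for neural precursors, 4 and 4 for muscle and 16 and 16 for cuticle. In the other lists of the main fit, the higher and lower genes numbered 6 and 10 of 39 for the proteasome, 5 and 5 of 22 for chitin synthesis, 4 and 5 of 12 for epidermal differentiation, 6 and 4 of 22 for ecdysone synthesis and response, 8 and 6 of 24 for metal handling, 2 and 2 of 11 for lysosomal enzymes and 6 and 4 of 17 for early patterning.

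Further comparisons set robo/WT beside the mutant and transgenic groups without the WT arrays. Against the mean of the other 16 groups, 4532 probe sets passed (32.5%), and by gene 2021 were higher (18.6%) and 1603 lower (14.8%), or 33.4% together. The robo/WT arrays were all above or all below every one of the 16 group means in 2.34% of genes. Against the mean of slit/WT and comm/WT, 1519 probe sets passed (10.9%), and by gene 614 were higher (5.66%) and 569 lower (5.25%). The comm/WT arrays were themselves of 2 kinds, with a GAPDH gap of 2.80 and 2.75 on replicates 1 and 2 and of 1.81 and 1.78 on replicates 3 and 4. Genes were ranked here if their robo/WT arrays lay beyond all 16 group means, or beyond every slit/WT and comm/WT array. Among them CG13315 was the lowest in both comparisons, at -1.41 ± 0.08 against the 16 groups (adjusted p = 2.2e-22) and -1.71 ± 0.10 against slit/WT and comm/WT (adjusted p = 4.4e-23). Its mean in robo/WT, 10.65 ± 0.15 (SD, n = 4), was below every other group, of which the lowest was at 11.27. Obp18a was likewise below all other groups, at 10.13 ± 0.12 (SD, n = 4) against 10.31 to 11.04. The pod1 gene did not meet this rule. Its mean in robo/WT was 10.63 ± 0.21 (SD, n = 4) against 10.71 to 11.66 in the other 16 groups. The nearest was comm/WT, at 10.71 ± 0.21 (SD, n = 4), and robo/WT replicate 3, at 10.85, was above that mean. The difference from comm/WT alone was not tested. At the second probe set of pod1, comm/WT was lower than robo/WT (10.01 and 10.15).

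On the high side, CG6565 read 12.87, 12.65, 12.80 and 13.02 in robo/WT and 11.58, 11.99, 11.81, 11.69 and 11.68 in WT. It was above every other group mean (11.61 to 12.55) and was the highest gene of that kind against the 16 groups (0.95 ± 0.06, adjusted p = 1.4e-19). The cytochrome P450 gene Cyp6a8 read 11.77, 11.81, 11.82 and 11.83 in robo/WT and 11.01, 10.75, 10.71, 10.63 and 10.64 in WT. The groups did not overlap, and against slit/WT and comm/WT it was the highest gene (0.97 ± 0.05, adjusted p = 1.9e-23), although robo12 had nearly the same mean, 11.79. The group means nearest to robo/WT for CG6565 included that of robo, at 12.55 ± 0.24 (SD, n = 4). Fpps, which makes the isoprenoid farnesyl pyrophosphate, was at 11.14 ± 0.11 (SD, n = 4) and higher than all other groups (9.74 to 10.90), and so was Kr-h1, a zinc finger gene of the juvenile hormone response, at 8.58 ± 0.08 (SD, n = 4) against 7.15 to 8.41. NimC1, a phagocytic receptor of hemocytes, was higher against slit/WT and comm/WT (0.63 ± 0.07, adjusted p = 2.4e-10) with a mean of 8.01 ± 0.10 in robo/WT and 8.07 ± 0.17 in robo (SD, n = 4 each).

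**Figure D4:**
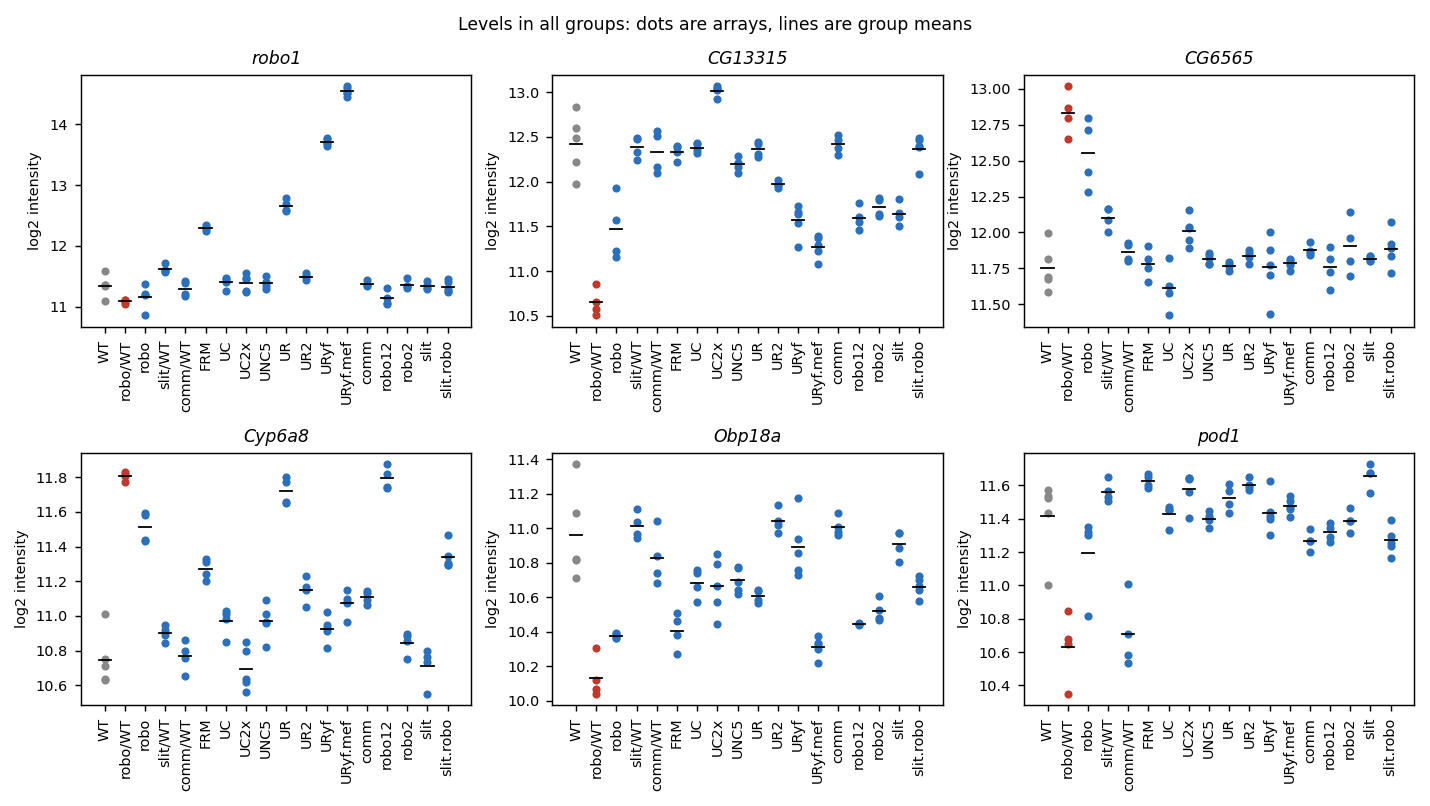
Log2 intensity of robo1, CG13315, CG6565, Cyp6a8, Obp18a and pod1 on all 78 arrays by group, with WT in grey, robo/WT in red, all others in blue and a line at each group mean. At the probe sets shown, the robo/WT mean was the lowest of the 18 for robo1, CG13315, Obp18a and pod1. It was the highest for CG6565 and Cyp6a8. At the other probe set of pod1, comm/WT was lower, at 10.01 against 10.15 in robo/WT.

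The group named robo differed from robo/WT at 4068 probe sets (29.1%), and by gene 1334 were higher in robo (12.3%) and 1926 lower (17.8%), or 30.1% together. Lowest among genes whose arrays did not overlap was ImpL1, an ecdysone-inducible gene, at 11.42 ± 0.21 (SD, n = 4) in robo and 13.32 ± 0.06 (SD, n = 4) in robo/WT (-1.90 ± 0.13, adjusted p = 1.3e-19). In WT it was at 13.41 ± 0.12 (SD, n = 5), and robo/WT against WT did not pass the test in the main fit (adjusted p = 0.6), though it did after quantile normalization (-0.25, adjusted p = 0.037) and with the array SD as a covariate (-0.33, adjusted p = 0.0096). CG9184, CG6026 and flz, a serine protease gene, showed the same order: robo was lower than robo/WT by differences of -1.43 ± 0.09, -1.40 ± 0.08 and -1.34 ± 0.13, while robo/WT against WT gave -0.04, 0.01 and 0.11, none of which passed. CG13315 was intermediate in robo, at 11.47 ± 0.36 (SD, n = 4), and higher there than in robo/WT by 0.82 ± 0.11 (adjusted p = 4.9e-08). Of the 92 cuticle protein genes, 38 were higher in robo than in robo/WT and 2 were lower, and of the 12 secretory genes none was higher and 9 were lower. These 2 sets of arrays also differed in the GAPDH gap, at 1.83 ± 0.10 (SD, n = 4) for robo and 2.19 ± 0.16 (SD, n = 4) for robo/WT.

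Chromosome and gene length were set beside the differences last, with measures chosen after the values were seen and 15 tests adjusted together. Of 1763 measured X-linked genes, 244 were higher (13.8%) and 602 lower (34.1%), against 1959 (21.8%) and 2257 (25.1%) of 8979 genes on arms 2L to 3R. The median X-linked gene, relative to the median gene of those arms, lay between -0.05 and -0.04 on the 4 robo/WT arrays and between -0.01 and 0.03 on the WT arrays. The groups did not overlap, the shift being -0.05 (exact permutation test, two-sided, p = 0.00794, adjusted p = 0.0429). Its mean was lowest of the 18 groups in robo/WT, at -0.044 ± 0.008 (SD, n = 4), and next lowest in comm/WT and slit/WT, at -0.043 ± 0.024 and -0.027 ± 0.010 (SD, n = 4 each). In robo it was 0.007 ± 0.008 (SD, n = 4; exact permutation test of robo/WT against robo, adjusted p = 0.0429). Of 57 measured genes on the small chromosome 4, 32 were higher (56.1%) and 4 lower (7.02%), with a median of 0.28. Chromosome 4 genes lay higher on robo/WT than on WT arrays by 0.34 relative to arms 2L to 3R (exact permutation test, p = 0.0159, adjusted p = 0.0429), and by 0.24 without WT replicate 1. The mean of this level was 0.07 in robo/WT and -0.27 in WT, but 0.21 in slit/WT and 0.19 in comm/WT. The exact permutation test of robo/WT did not pass against robo (0.15, adjusted p = 0.0714), slit/WT (-0.14, adjusted p = 0.0714) or comm/WT (-0.12, adjusted p = 0.132).

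Calls also followed the length of the gene on the chromosome. Among 4 equal classes of genes by annotated span, 6% were higher and 39.4% lower in the class of the shortest, and in that of the longest 33.8% were higher and 18.6% lower. Of the 57 chromosome 4 genes, 46 were in the longest class and 9 in the next longest. Within the longest class, the median difference was 0.22 on chromosome 4 and 0.08 to 0.09 on arms 2L to 3R. Within the next longest it was 0.49 on chromosome 4 and 0.01 to 0.04 on those arms. The part of span in the chromosome 4 difference was not tested. On each array, the median of the longest class relative to the shortest was higher in robo/WT than in WT by 0.16 (exact permutation test, p = 0.00794, adjusted p = 0.0429) and higher than in robo by 0.11 (exact permutation test, adjusted p = 0.0429). It differed from comm/WT by 0.004 (exact permutation test, adjusted p = 0.971), and lay below slit/WT (-0.14; exact permutation test, adjusted p = 0.0429). The part of span in the counts of the lists above was not tested.

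**Figure D5:**
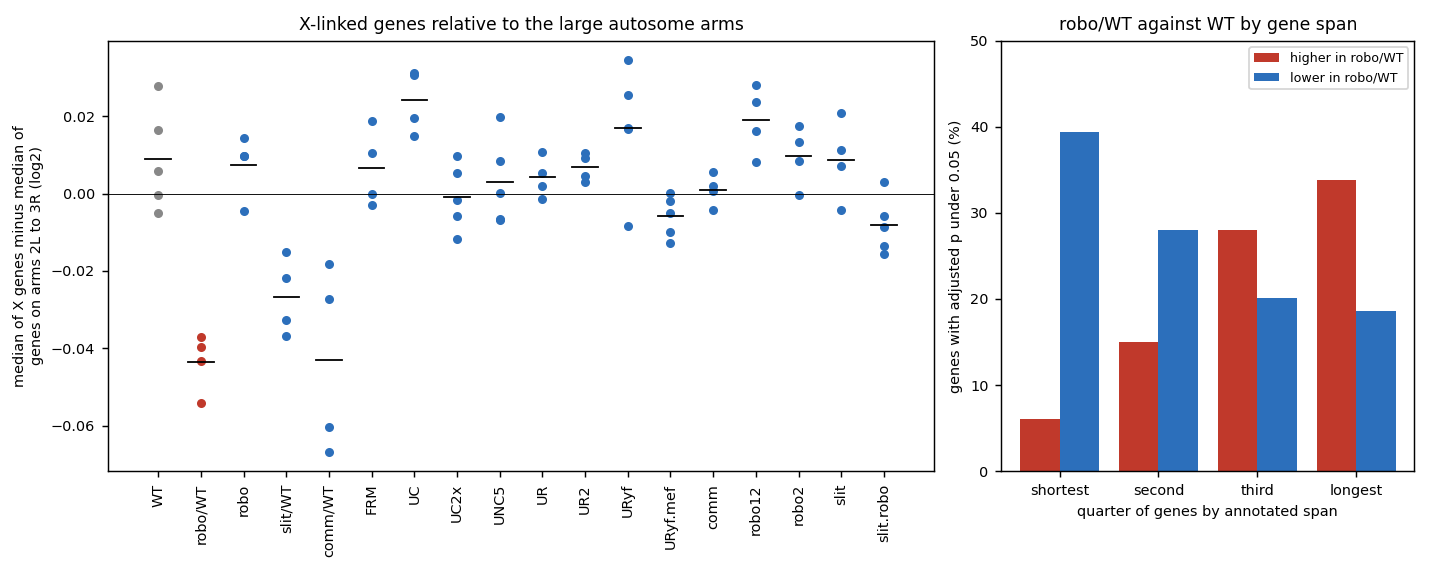
Left, the median log2 level of X-linked genes minus that of genes on arms 2L to 3R, for all 78 arrays by group (dots) with the group means (lines). Each gene was taken relative to the mean of the 16 group means other than WT and robo/WT. Right, the share of genes higher or lower in robo/WT against WT in 4 equal classes of annotated span. The 4 robo/WT arrays lie below all WT and robo arrays, and 39.4% of the shortest genes were lower against 18.6% of the longest.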

How the data were processed

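Embryo RNA was hybridised to 78 single-colour Affymetrix arrays. The deposited table holds 1 linear intensity per probe set and array; per the submitters' processing notes the authors used RMA (version not given in the sources used here), and per the labels RNA was extracted on QIAGEN columns. Intensities give no depth, so the number of arrays limits the precision. No detection calls were used. From these deposited intensities log2 values were taken, 44 control probe sets were left out of 14010, and the moderated linear model of limma 3.58.1 (R 4.3.3; functions lmFit, contrasts.fit and eBayes; two-sided) was fitted to 18 group means with 60 residual degrees of freedom, with Benjamini-Hochberg adjustment and a threshold of 0.05. The call of limma is meant wherever an adjusted p stands without another test. Figures were drawn with matplotlib.

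Of the 13966 probe sets, 12443 carried 1 gene name, 327 several and 1196 none; 12394 were named through the RefSeq table and 49 kept the platform's name. A gene with several probe sets (1209 of 10844) is represented by the one with the highest mean. Annotated spans and chromosomes came from the RefSeq table (Release 6 plus ISO1 MT) and were present for 99.6% of genes. No gene or probe sequence was used, and further receptor genes were not analysed here.

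The genes named are the 12 highest and 12 lowest differences among calls without overlap that were kept with the array SD as a covariate and without the 6 arrays whose SD lay more than 0.05 from the median of their group, 8 guidance genes, up to 4 members of each of 29 lists with the largest differences, and the 6 highest and lowest of each further comparison; not all of them are described. Nrg, Ptp10D, Abl, elav, repo, ple, Hsc70-3, ac, sc and l(1)sc were added after their values were seen. The lists held 840 entries, of which 739 were measured, and lists, members and comparisons were chosen with earlier results of these data known. Arrays with the same replicate number did not deviate together: between robo/WT and WT arrays of the same number, the correlations of deviations from the group means for replicates 1 to 4 were 0.18, -0.34, -0.07 and 0.26, so the numbers do not pair the samples. Alternatives were quantile normalization, leaving out probe sets under percentile 40 of mean level, the replicate block, array weights, the array SD as a covariate, leaving out arrays that stood apart, fitting only the compared groups, and leaving out each array in turn.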

Additional observations from a re-analysis of the deposited data

Results flagged for a closer look

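Among the 95 genes described and 6 array measures, 202 groups of arrays were examined for a single array far from the rest, and 19 (9.41%) had one, where chance gives about 0.05 of groups; 10 of the 19 were in WT replicate 1 and 8 in robo/WT. WT replicate 1 was high for the gut proteases Jon99Fii (13.79, the other WT arrays 10.83 to 10.92), Jon99Fi (10.93) and Jon25Biii (11.96), and for ple (12.21). It was low for fra (10.09), Crk (10.38), nrv2 (7.63), Cpr67Fa2 (7.68) and Hrb87F (10.14), and for the level of chromosome 4 genes relative to arms 2L to 3R (-0.65, the other WT arrays -0.24 to -0.10). In robo/WT replicate 4 the values were high for DCP2 (11.13), tna (12.32), Nrx-1 (11.08), nrv2 (9.49), Fpps (11.30) and the array SD (1.79). The remaining cases were aqz in robo/WT replicate 3 (11.68, the others 11.86 to 11.89), grh in robo/WT replicate 1 (9.66, the others 9.74) and pod1 in WT replicate 4 (11.001, the others 11.43 to 11.57).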

How the results depend on the processing

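The count for robo/WT against WT was 6512 probe sets, and 3822 (1828 higher, 1994 lower) when the fit held the compared groups alone; leaving out each array in turn gave 4854 to 7022, with 2263 to 3040 higher and 2591 to 3982 lower, the smallest without robo/WT replicate 4. The lower calls, 3637 in the main analysis, numbered 2179 without dim probe sets and 2311 with the array SD as a covariate. The share of calls that were higher was 44.1% in the main analysis, 43.9% after quantile normalization, 50.7% without dim probe sets and 48.7% with that covariate. Against the other 16 groups, 4532 calls became 2941 without robo/WT replicate 4, and 2941 to 4022 over the robo/WT arrays left out. Against slit/WT and comm/WT, 1519 calls became 3024 with array weights, 2485 without arrays that stood apart and 909 to 1569 without single arrays, with 909 without robo/WT replicate 2. For robo against robo/WT, 4068 became 6441 with array weights, 6137 without arrays that stood apart and 2654 to 4997 without single arrays. With the replicate number as a block, robo/WT against WT had 6261 calls, 2776 higher and 3485 lower, although the numbers do not pair the samples. CtsL1, a lysosomal protease gene at 0.22 in the main analysis, turned to -0.025 with the array SD as a covariate (adjusted p = 0.74). Of 162 genes named by the rule 150 were called and 121 kept direction and call in every alternative run. The cause of these shifts was not tested. Signal over background cannot be judged without detection calls.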

Other observations

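Against the mean of the other 16 groups, without any WT array, cuticle protein genes were mostly lower in robo/WT: 49 of 92 were lower and 1 was higher, beside 14.8% lower and 18.6% higher over all genes. In the secretory pathway 9 of 12 genes were higher and none was lower, and of 27 midgut serine proteases 17 were lower and 1 was higher. Against slit/WT and comm/WT, where 5.66% of all genes were higher and 5.25% lower, the secretory list had none higher and 2 lower, and the midgut proteases 3 higher and none lower. The cuticle list had 2 higher and 10 lower there. The cause of these counts was not tested.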
